A study of Homo sapiens with 6 samples.

Results

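Kinesin-1 is described here through its 7 genes in HCT116, a human colorectal carcinoma cell line: the light chain genes KLC1, KLC2, KLC3 and KLC4 and the heavy chain genes KIF5A, KIF5B and KIF5C. The 7 were taken by gene symbol from the 58780 human genes in the tables, and all 7 were among the 19725 genes with enough reads to test. The comparison was between 3 libraries labelled as 16 h of auxin and 3 labelled as a DMSO control, DMSO being the solvent. Auxin is a plant hormone that, in cells engineered for it, drives the degradation of a degron-tagged protein. The labels name neither the tagged protein, the clone nor the time in DMSO, so auxin alone and loss of that protein cannot be told apart. The family was selected on the log2 fold change of KLC2 in this same contrast, and the values of KLC2 are therefore given as a description, with no test. The other 6 genes were listed as the rest of its family, with earlier results of these data known.

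Kinesin-1 is a motor that carries vesicles, mitochondria and RNA along microtubules towards the cell periphery. Its heavy chains hold the motor domain and pair through a coiled coil. Its light chains bind the tails of the heavy chains and hold cargo adaptors with their tetratricopeptide repeats. KIF5B is the heavy chain found in most tissues, while KIF5A and KIF5C are best known from neurons. KLC1 and KLC2 are the broadly expressed light chains, and KLC3 is best known from the sperm tail.

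Total expected counts ranged from 234037969 to 625895062 per library, and replicate 1 of each group was the deepest. Of the epithelial markers, 5 of 6 were present, and their summed level was 2720 to 3080 CPM (read counts scaled to library size) in DMSO and 3680 to 3970 CPM in auxin; the sixth, CEACAM5, was under 0.1 CPM in every library. The fibroblast markers summed to 1.55 to 5.33 CPM and the endothelial markers to 0.252 to 0.557 CPM over all 6 libraries. Leukocyte markers summed to 58.8 to 65.0 CPM in DMSO and 18.6 to 22 CPM in auxin, nearly all of it CD68, with 3 of the 6 under 0.1 CPM throughout. Neuron markers summed to 97.7 to 121 CPM in DMSO and 106 to 121 CPM in auxin, from TUBB3 and MAP2, and 3 of the 6 were under 0.1 CPM throughout. Whether any of these moves bears on the kinesin-1 genes was not tested. In bulk RNA, fewer cells that express a gene and less of its RNA per cell cannot be told apart.

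A pair of places in the light chain genes carry the transcript results below and are shown first. The first is in KLC2, at the splice donor of the fourth exon of the transcript KLC2-204, at chr11:66262123-66262282 on the plus strand of GRCh38. Capitals mark the first 90 bases of the intron, which is 621 bases long (chr11:66262193-66262813). Of all KLC2 transcripts in GENCODE release 29, KLC2-211, annotated as a retained intron, is the one with an exon over these bases, and it holds 463 bases of the intron.
KLC2 donor and intron start: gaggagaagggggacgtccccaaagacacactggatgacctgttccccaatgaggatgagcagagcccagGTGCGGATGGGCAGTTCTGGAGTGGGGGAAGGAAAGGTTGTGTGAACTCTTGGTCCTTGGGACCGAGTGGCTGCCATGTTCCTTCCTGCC

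The second is in KLC1, in the coding exon at chr14:103679384-103679545 on the plus strand of GRCh38. This exon ends at either of 2 donors. Capitals mark the 27 bases between them (chr14:103679519-103679545), which are exon in transcripts with the long form and intron in those with the short form. The transcripts also part at the next-to-last exon, which is a proximal one of 67 bases (chr14:103692359-103692425) or a distal one of 73 bases (chr14:103700655-103700727), both coding and printed in capitals throughout. Of the 4 KLC1 transcripts of 16 exons, KLC1-201 has the long donor and the proximal exon, KLC1-208 the long donor and the distal exon, KLC1-203 the short donor and the proximal exon, and KLC1-217 the short donor and the distal exon.
KLC1 exon with both donors: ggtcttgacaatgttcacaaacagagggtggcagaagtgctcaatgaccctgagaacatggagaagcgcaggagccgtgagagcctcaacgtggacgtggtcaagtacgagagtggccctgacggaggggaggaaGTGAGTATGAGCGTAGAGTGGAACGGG
KLC1 proximal exon: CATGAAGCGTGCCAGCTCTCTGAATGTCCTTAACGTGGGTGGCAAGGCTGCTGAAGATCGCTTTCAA
KLC1 distal exon: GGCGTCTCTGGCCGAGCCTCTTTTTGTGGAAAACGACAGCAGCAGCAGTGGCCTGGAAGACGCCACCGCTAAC

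After auxin, KLC2 RNA was a small fraction of its DMSO level in every library. KLC3, KLC4 and KIF5A also fell, KLC1 rose 1.22-fold, and KIF5B, the main heavy chain, did not pass the test. Of the 6 genes other than KLC2, 3 were called lower, 2 higher and 1 neither, with edgeR's quasi-likelihood test at a Benjamini-Hochberg adjusted p under 0.05 over all genes. Calls were common in this contrast: 26.9% of all tested genes were called lower and 25.4% higher, 52.3% in all. The median log2 fold change was -0.82 over the 6 genes, a value that none of them was near, and 0.02 over all tested genes. KLC3, KLC4 and KIF5A lay between -2.36 and -1.82, and KLC1, KIF5B and KIF5C between 0.17 and 0.29. Of the 6 genes other than KLC2, KIF5B alone had groups that overlapped in CPM. Over all tested genes 60.3% had no such overlap (30.4% lower and 30.0% higher). A gap between the groups by itself thus sets a gene apart little here.

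KLC2 (chr11:66257294-66267860, plus strand) held 28871, 11858 and 12260 expected counts in DMSO replicates 1, 2 and 3 and 1465, 404 and 316 in auxin replicates 1, 2 and 3. Scaled to library size, its level was 47.94, 42.06 and 45.15 CPM in DMSO and 2.27, 1.69 and 1.43 CPM in auxin. The 3 DMSO libraries lay close together, and every auxin library was far below all of them. The fitted log2 fold change was -4.64 (SE 0.18), a level 24.9 times lower. On TPM, which is scaled by transcript length, the means were 18.7 ± 6.07 in DMSO and 0.867 ± 0.242 in auxin (SD, n = 3 each), 21.5 times lower. With offsets that remove the trend with GC content in each library, the log2 fold change was -3.80.

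KLC1 (chr14:103561896-103714249, plus strand), the most abundant light chain, was at 94.21, 100.7 and 103.8 CPM in DMSO and 113.5, 125.4 and 125.9 CPM in auxin. All auxin libraries were above all DMSO libraries on this scale, and each was above the DMSO library of the same number. The log2 fold change was 0.29 (SE 0.07; edgeR adjusted p = 0.00947). On TPM the groups overlapped, at 64.31, 43.77 and 47.65 in DMSO and 61.59, 50.15 and 54.04 in auxin, and limma on log2(TPM + 1) gave a change of 0.10 with adjusted p = 0.727. With the GC offsets the log2 fold change was 0.87, so the size of the KLC1 rise rests on the scale and correction used. Those offsets take GC content from a gene's longest transcript of any type. Of the tested KLC1 transcripts the longest was KLC1-204, at 15091 bases, with 0.21% of KLC1 TPM in DMSO and 0.10% in auxin. Offsets from another transcript were not tested.

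KLC3 (chr19:45333434-45351520, plus strand) was at 6.16, 5.64 and 5.46 CPM in DMSO and at 1.86, 1.55 and 1.47 CPM in auxin. The log2 fold change was -1.82 (SE 0.13; edgeR adjusted p = 3.61e-05), and -1.14 with the GC offsets. The groups were well apart, with the fall about the same in each numbered pair.

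KLC4 (chr6:43040777-43075099, plus strand) was the scarcest light chain, with 799, 427 and 328 expected counts in DMSO and 231, 58 and 47 in auxin. These counts correspond to 1.33, 1.51 and 1.21 CPM in DMSO and to 0.357, 0.243 and 0.212 CPM in auxin. Its log2 fold change was -2.29 (SE 0.23; edgeR adjusted p = 0.000168). On log2(TPM + 1), where a level this low is compressed, limma gave -0.62 with adjusted p = 0.0103.

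Among the heavy chains, KIF5A (chr12:57549998-57586632, plus strand) was the one that fell. It was at 4.32, 4.74 and 4.26 CPM in DMSO and at 1.03, 0.690 and 0.862 CPM in auxin, with no overlap. Its log2 fold change was -2.36 (SE 0.17; edgeR adjusted p = 3.59e-05), -2.41 with the GC offsets and -0.67 on log2(TPM + 1).

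KIF5B (chr10:32009010-32056431, minus strand) held 430.5, 522.7 and 552.2 CPM in DMSO and 483.7, 611.1 and 599.2 CPM in auxin. The groups overlapped, replicate 1 was the lowest in both, and each auxin library was above the DMSO library of its number. The log2 fold change was 0.17 (SE 0.13; edgeR adjusted p = 0.297). With the replicate number as a block, the same log2 fold change had an adjusted p of 0.0017 in edgeR, a fit in which 69.9% of genes were called.

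KIF5C (chr2:148875250-149026759, plus strand) was at 13.03, 14.56 and 15.42 CPM in DMSO and at 15.52, 18.55 and 18.40 CPM in auxin. The lowest auxin library lay just above the highest DMSO library. The log2 fold change was 0.29 (SE 0.10; edgeR adjusted p = 0.0489), at the edge of the threshold. This call was lost with DESeq2 size factors in edgeR (adjusted p = 0.0583), with the GC offsets (0.394), on log2(TPM + 1) with limma (0.750) and without any 1 library other than auxin replicate 1 (0.0622 to 0.154).

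**Figure D1:**
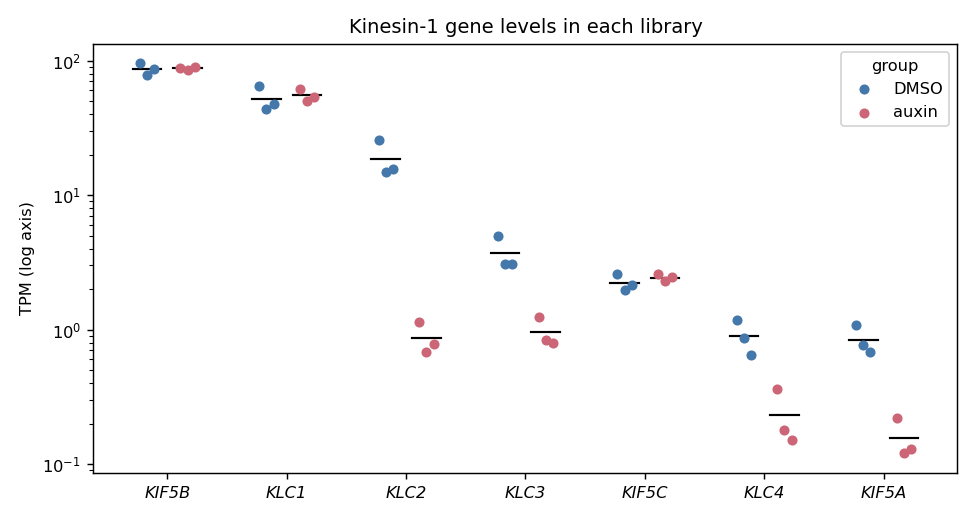
Level of each kinesin-1 gene in each library, in TPM on a log axis, with blue points for the 3 DMSO libraries, red points for the 3 auxin libraries and a black line at each mean. KLC2 dropped from a mean of 18.7 to 0.867 TPM, next to KLC3, while KIF5B and KLC1 held the top of the order in both groups.

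TPM allows levels to be compared between genes. In DMSO the order of mean TPM was KIF5B (86.7 ± 8.20), KLC1 (51.9 ± 10.9), KLC2 (18.7 ± 6.07), KLC3 (3.70 ± 1.07), KIF5C (2.24 ± 0.309), KLC4 (0.897 ± 0.261) and KIF5A (0.843 ± 0.210; SD, n = 3 each). Neighbours in this order did not overlap, apart from KLC4 and KIF5A. In auxin KLC2, at 1.14, 0.68 and 0.78 TPM, ranked next to KLC3 at 1.24, 0.83 and 0.79 TPM. The ranges of KLC2 and KLC3 overlapped there, as did those of KLC4 and KIF5A, and KIF5C (2.44 ± 0.135) now stood above KLC3.

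The light chain pool became almost wholly KLC1. The share of KLC2 in the summed TPM of the 4 light chains was 26.7%, 23.6% and 23.2% in DMSO and 1.77%, 1.31% and 1.40% in auxin. KLC1 made up 69.4% ± 2.2 of the pool in DMSO and 96.5% ± 0.634 in auxin, and KLC3 4.89% ± 0.259 and 1.65% ± 0.259 (SD, n = 3 each). Shares within a pool are tied to each other, so the gain in the share of KLC1 follows in part from the loss of KLC2. The summed light chain TPM was 96.1, 62.5 and 66.9 in DMSO and 64.3, 51.8 and 55.8 in auxin. The groups overlap, while the auxin library was the lower one in each of the 3 numbered pairs.

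The heavy chain pool was almost wholly KIF5B in both groups. KIF5B was 96.6% ± 0.264 of the summed heavy chain TPM in DMSO and 97.1% ± 0.183 in auxin (SD, n = 3 each). KIF5A went from 0.934% ± 0.164 to 0.174% ± 0.0605 and KIF5C from 2.49% ± 0.108 to 2.71% ± 0.123, and none of the 3 shares overlapped between the groups. The heavy chain sums were 98.8, 81.5 and 88.9 TPM in DMSO and 90.3, 87.9 and 91.7 TPM in auxin, which overlap. The ratio of light to heavy chain TPM was 0.972, 0.766 and 0.753 in DMSO and 0.713, 0.589 and 0.608 in auxin. All auxin ratios lay below all DMSO ratios, but the gap between the nearest libraries was narrow, and the ratio contains KLC2.

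**Figure D2:**
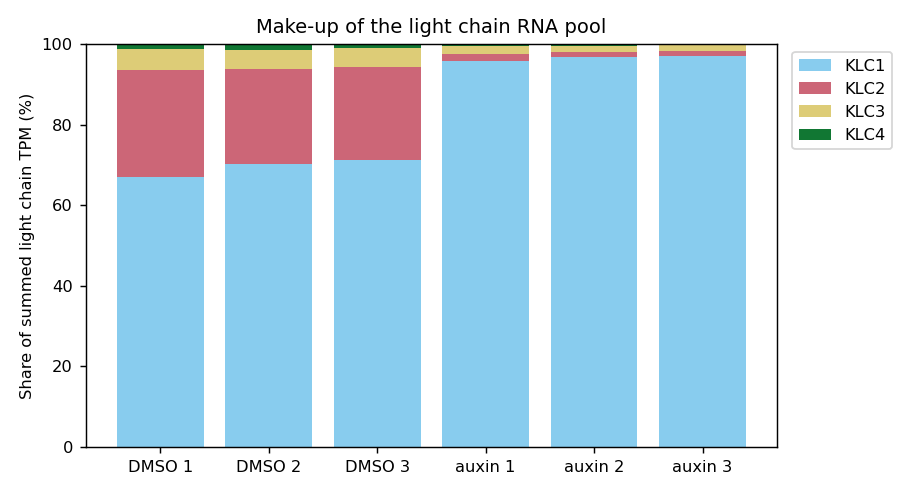
Share of each light chain gene in the summed TPM of KLC1 to KLC4, in percent, as 1 stacked bar per library. KLC2 held 23.2% to 26.7% of the pool in the DMSO libraries and 1.31% to 1.77% in the auxin libraries.

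The KLC2 transcripts did not all follow the gene. The coding transcript KLC2-204, of 16 exons, held 13550, 6674 and 7562 expected counts in DMSO and 362, 157 and 88 in auxin, a log2 fold change of -5.51 (SE 0.25). The coding transcript KLC2-203, of 14 exons, which lacks 1 coding exon and starts downstream, went from 11838, 3866 and 3421 counts to 693, 126 and 143 (-4.34, SE 0.33). Both were lower in every auxin library than in any DMSO library.

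KLC2-211, the transcript with the intron bases printed above, held 110, 13 and 17 expected counts in DMSO and 59, 14 and 17 in auxin. The groups overlapped, with DMSO replicate 1 the highest, and the log2 fold change was -0.36 (SE 0.59). Its share of KLC2 TPM was 1.91%, 0.609% and 0.772% in DMSO and 17.7%, 14.5% and 18.0% in auxin. Its share was thus higher in every auxin library while its own level was not.

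KLC2-202 behaved alike and was singled out after its values were seen. It is annotated as coding, starts inside an intron of KLC2-204 and keeps the last intron, with 13 exons in all. Its expected counts were 332, 95 and 81 in DMSO and 278, 82 and 31 in auxin, a log2 fold change of -0.36 (SE 0.47). The share of KLC2 TPM went from 0.578% ± 0.149 to 8.69% ± 4.22 (SD, n = 3 each). A second transcript annotated as a retained intron, KLC2-214, whose final exon runs past a donor, held 141, 39 and 0 counts in DMSO and 9, 5 and 9 in auxin, too scattered to place. KLC2 transcripts share most of their exons, so these counts rest on how the authors' counting model divided shared reads; the largest posterior SD in any library was 3 counts for KLC2-211, 22 for KLC2-202 and 392 for KLC2-204.

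**Figure D3:**
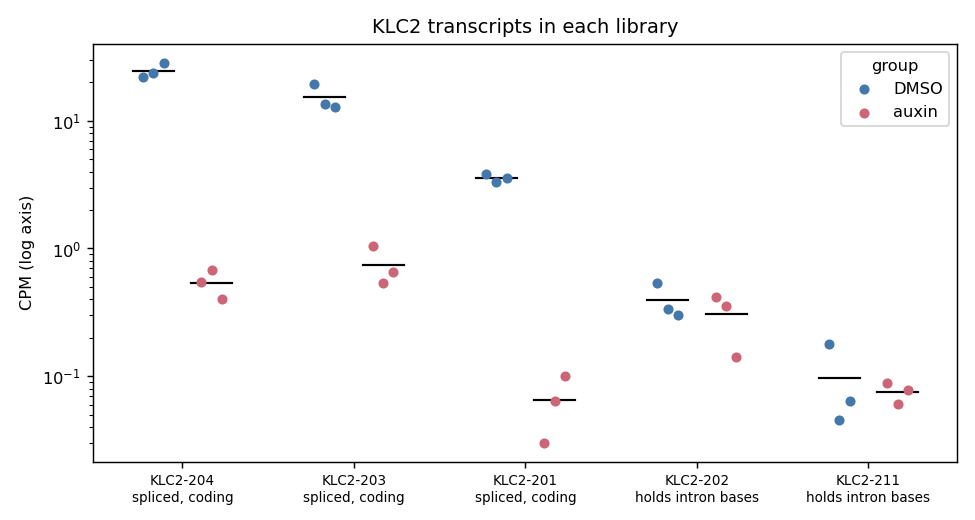
CPM of 5 KLC2 transcripts in each library, on a log axis, with blue points for DMSO, red points for auxin and a black line at each mean. The 3 spliced coding transcripts were lower in every auxin library than in any DMSO library, while the ranges of KLC2-202 and KLC2-211, which hold intron bases, overlapped between the groups.

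Some KLC1 transcripts changed more than the gene as a whole. Of the 27 annotated KLC1 transcripts 23 were tested, and 3 were called higher and 1 lower. Of all 83072 tested transcripts 8.43% were called higher and 11.2% lower, 19.7% together. Calls of both kinds together were thus no more common among KLC1 transcripts than among all. Higher calls alone, at 3 of 23, were more common. KLC1-217, with the short donor and the distal exon, held 4391, 2554 and 3012 expected counts in DMSO and 11940, 6069 and 5074 in auxin. Its change was 1.30 in log2 terms (SE 0.22; edgeR adjusted p = 0.0103), and its share of KLC1 TPM rose from 7.88% ± 1.44 to 16.0% ± 2.15 (SD, n = 3 each). KLC1-201, which differs from it at both places, went the other way in its estimate, with a log2 fold change of -0.76 (SE 0.37) that did not pass the test (adjusted p = 0.226, and 0.0235 with the replicate block).

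KLC1-203, with the short donor and the proximal exon, was at 0.51 in log2 fold change (SE 0.24; edgeR adjusted p = 0.213). KLC1-208, with the long donor and the distal exon, had one of -0.28 (SE 0.19; edgeR adjusted p = 0.375). The other transcripts called were KLC1-212 (0.86, adjusted p = 0.0244) and KLC1-205 (1.05, adjusted p = 0.0137), both higher, and KLC1-204 (-0.66, adjusted p = 0.0463), which was lower; these 3 are named because they were called. The most abundant others, KLC1-206 and the short KLC1-209 of 3 exons, were at 0.25 and 0.14 in log2 fold change, neither past the test; with the replicate block KLC1-206 was, at an edgeR adjusted p of 0.0283.

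Among the 4 transcripts of 16 exons, the short donor took 45.1%, 44.1% and 40.2% of their TPM in DMSO and 67.5%, 66.2% and 64.6% in auxin. The groups were far apart, with the short form higher in 3 of 3 numbered pairs. The means were 43.1% ± 2.58 and 66.1% ± 1.44 (SD, n = 3 each), and the two-sided exact permutation p was 0.10, the smallest that 3 against 3 allows, and 0.10 after adjustment over 4 such shares. This share was put together after the transcript values were seen, so its p is a description and no test. The 4 shares also draw on overlapping sets of transcripts. Over all 19 KLC1 transcripts that hold either donor the short form took 30.0% ± 2.95 in DMSO and 41.8% ± 5.50 in auxin (SD, n = 3 each), again with no overlap. Distal exons took 40.8% ± 2.54 and 50.6% ± 3.91 of the 4 transcripts (SD, n = 3 each), a smaller difference. The 27 bases are a whole number of codons, so both forms keep the reading frame of the next exon.

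**Figure D4:**
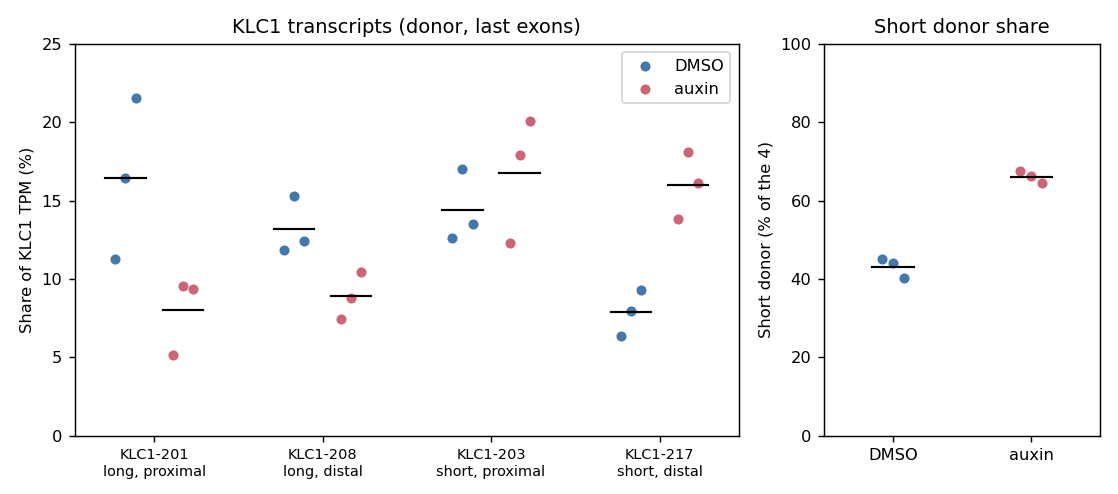
Left, share of KLC1 TPM held by each of the 4 transcripts of 16 exons, in percent, by donor (long or short) and next-to-last exon (proximal or distal); right, the percent of these 4 with the short donor. Points are libraries (blue DMSO, red auxin) and black lines means; the short donor share was 40.2% to 45.1% in DMSO and 64.6% to 67.5% in auxin.

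In the other members, the main coding transcript followed the gene. KLC3-201, 97.3% of KLC3 TPM in DMSO, was at -1.91 in log2 fold change (SE 0.16; edgeR adjusted p = 0.00101). KLC4-202 and KLC4-201 fell by 3.27 (SE 0.44) and 5.69 (SE 1.41) on the log2 scale, with edgeR adjusted p of 0.00476 and 0.0381. KLC4-201 held 136, 30 and 117 expected counts in DMSO and 0, 0 and 4 in auxin, with a posterior SD of up to 30 counts. The size of its fall is therefore uncertain. KLC4-207, annotated as a retained intron, was at 3, 5 and 0 counts in DMSO and 18, 6 and 6 in auxin, which is too few to have been tested. KLC4-219, also a retained intron, held 28.8% of KLC4 TPM in DMSO and went the other way. Its counts were 101, 55 and 23 in DMSO and 19, 0 and 4 in auxin (log2 fold change -3.11, SE 0.93, edgeR adjusted p = 0.0674). The retained intron KLC4-213 (8, 5 and 5 counts, then 20, 0 and 4) and the coding KLC4-218 (11, 1 and 4, then 14, 3 and 0) were not tested. KIF5A-202 was at -2.36 in log2 fold change (SE 0.19; edgeR adjusted p = 0.000825). KIF5B-201 made up 99.99% of KIF5B TPM in both groups, and KIF5C-201 81.3% and 81.4% of KIF5C TPM, and neither passed the transcript test, although KIF5B-201 did with the replicate block (edgeR adjusted p = 0.048).

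KLC1, KLC3 and KLC4 share ground with protein-coding genes on the opposite strand, which matters because the use of strand in counting is not given in the sources used here. KLC4 overlaps CUL7, a scaffold of a ubiquitin ligase, over 13169 bases, and CUL7 had a log2 fold change of -2.31 (SE 0.13). KLC3 overlaps ERCC2, a helicase of transcription factor IIH, over 1684 bases, and ERCC2 was at -1.46 (SE 0.14). KLC1 overlaps XRCC3, a gene of recombination repair, over 16641 bases, and XRCC3 was at -2.10 (SE 0.26). Also opposite KLC4 is MRPL2, over 5778 bases, at -0.61 (SE 0.08), and opposite KLC1 is BAG5, over 936 bases, at 0.09 (SE 0.06; edgeR adjusted p = 0.27, and 0.0486 with the replicate block). KLC3 and KLC4 thus moved the same way as the genes opposite them, and KLC1 against XRCC3; how many reads any pair shares was not tested. KLC1 also overlaps the readthrough gene AL139300.1 on its own strand, over 122963 of the 152354 bases that KLC1 spans. The sum of both was 97.21, 110.7 and 116.7 CPM in DMSO and 115.3, 134.3 and 134.5 CPM in auxin, which overlap slightly. KLC2 overlaps 3 antisense genes, each under 0.1 CPM in every library, and KIF5A and KIF5B overlap none.

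The genes of the family differ widely in structure. In their longest coding transcripts, KLC2 has 7551 intron bases in total with a median intron of 215 bases, KLC3 4301, KLC4 12549, KIF5A 30811, KIF5B 41545, KLC1 69784 and KIF5C 144579. Exon GC content was 64.8% in KLC3, 63.0% in KLC2, 59.4% in KLC4, 53.6% in KLC1, 51.4% in KIF5A, 44.5% in KIF5C and 39.1% in KIF5B. Among 14003 tested protein-coding genes, KLC2 stood above 91.0% in GC content and above 23.8% in total intron length. The 3 light chains with the least intron sequence and the highest GC content are the 3 whose RNA was lower after auxin, and KIF5A is lower with a GC content near the middle.

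Over all these protein-coding genes, a lower level after auxin went with GC content: 59.8% of genes in the highest of 5 equal classes of GC content were called lower, against 18.8% in the second lowest class and 33.5% in all, while 28.0% of all were called higher. By total intron length, 43.1% of the class with the least intron sequence and 23.8% of that with the most were called lower. Across genes, which are not independent replicates, Spearman's rho with the log2 fold change was -0.36 for GC content and 0.19 for total intron length, and -0.37 between those 2 properties.

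KLC2 was chosen for its fall, so its rank near the end of the genes of its own kind follows from that choice and is a description. Of the 840 genes in its class of both intron length and GC content, 64.8% were called lower and the median log2 fold change was -0.91, and 1 of the 840 had a lower log2 fold change than KLC2. Of all 19725 tested genes, coding or not, 5 did. KLC4 sits among the same 840 genes, and 163 of them had a lower log2 fold change than it. KLC3, compared with its 1031 genes of like structure, had 264 below it, so KLC3 and KLC4 were on the low side of genes like them but not at the end.

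KIF5A lay outside the pattern with GC content. Its 552 genes of like structure had a median log2 fold change of 0.18, with 23.2% called lower, and 8 of them had a lower log2 fold change than KIF5A. KLC1, KIF5B and KIF5C stood higher among genes of their own kind, with log2 fold changes above 72.2%, 62.2% and 61.9% of them. Level differs too: mean DMSO CPM placed KIF5B above 98.4% of these genes, KIF5A above 26.7% and KLC4 above 17.8%, and the part of level, GC content or intron length in these changes was not tested.

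**Figure D5:**
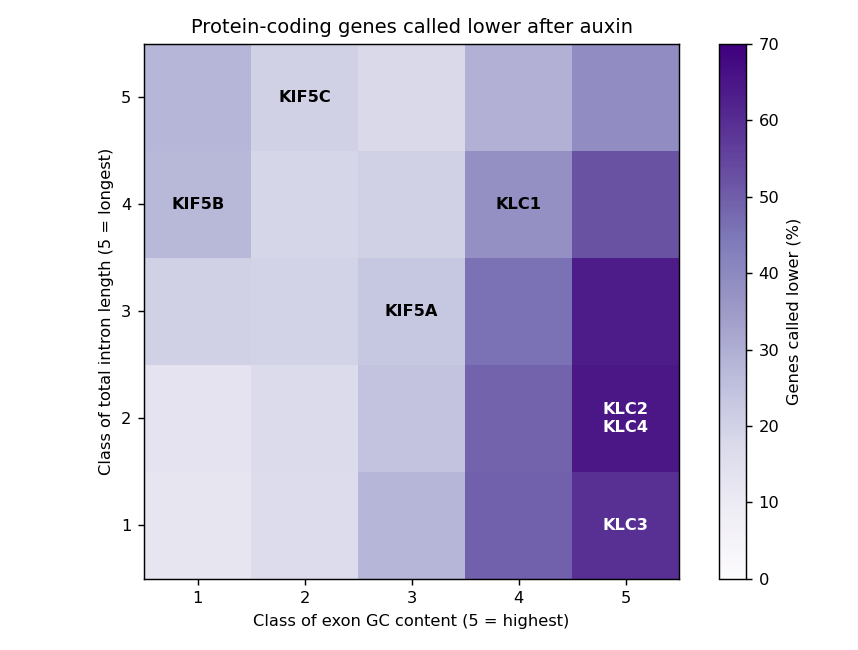
Percent of protein-coding genes called lower after auxin, by class of exon GC content (x axis) and of total intron length (y axis), 5 equal classes each, with each kinesin-1 gene named in its cell. KLC2 and KLC4 share the cell with 64.8% called lower and KLC3 is next to it at 59.3%, while KIF5A stands in a cell with 23.2%.

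Around KLC2, no tested gene rose. Within 100 kb there were 12 tested genes, of which 8 were called lower, 0 higher and 4 neither by edgeR, against 26.9% lower and 25.4% higher over all tested genes. Most of the coding neighbours fall in the highest class of exon GC content, where 59.8% of genes were called lower. The nearest, RAB1B, a GTPase of transport from the endoplasmic reticulum, starts 673 bases beyond KLC2 and was at -0.82 in log2 fold change (SE 0.07; edgeR adjusted p = 8.92e-05). PACS1, a sorting adaptor 12547 bases upstream, was at -1.19 (SE 0.10). YIF1A, a membrane protein of the early secretory pathway, was at -2.40 (SE 0.18), and SLC29A2, a nucleoside transporter, at -2.65 (SE 0.23). RIN1 was at -1.82, CNIH2 at -1.22, BRMS1 at -0.98 and B4GAT1 at -0.76, all called lower, and TMEM151A at -0.46 was not called (adjusted p = 0.142 in edgeR, and 0.00259 with the replicate block). The other 3 not called were the non-coding genes AP001107.1, AP001107.2 and AP001107.9, at -0.80, -0.61 and -0.51. None fell as far as KLC2, and these neighbours are GC-rich as well, at 57.9% to 68.0% in the coding ones.

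The genes whose pattern over the 6 libraries was nearest to that of KLC2, by Euclidean distance between centred log2 CPM among 11730 protein-coding genes, were LYPLA2 (distance 0.20), E2F1 (0.24), MINK1 (0.25), ITPKA (0.28) and HES6 (0.41). They were selected to match KLC2 and their log2 fold changes, from -4.71 to -4.42, are a description. Their exon GC content was 61.1% to 66.9%. Total intron length was 404 bases in HES6, 2760 in LYPLA2, 7853 in ITPKA and 8219 in E2F1, below or near that of KLC2, and 59700 in MINK1.

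The partners of kinesin-1 moved both ways. Of 35 adaptors, cargoes and regulators, 34 were tested, and 9 were called higher and 12 lower, with a median log2 fold change of 0.01 against 0.02 over all genes. With limma on log2(TPM + 1) 1 was higher and 6 lower, and with edgeR and the replicate block 13 were higher and 14 lower. The largest falls were in MAPK8IP2 (-3.92, SE 0.18; edgeR adjusted p = 6.44e-06) and MAPK8IP1 (-2.79, SE 0.26; adjusted p = 0.000126), the scaffold proteins JIP2 and JIP1 that bind light chains, and in RHOT2 (-2.29, SE 0.31; adjusted p = 0.000705), a mitochondrial GTPase that recruits the motor through its adaptors. The relatives MAPK8IP3 (-0.46) and RHOT1 (-0.10) did not pass edgeR's test (adjusted p = 0.314 and 0.432), and did with the replicate block (0.00362 and 0.0187). The largest rises at 1 CPM or more were in MAP7D3 (0.86, SE 0.07; edgeR adjusted p = 7.07e-05), which binds microtubules and recruits kinesin-1, BORCS5 (0.63, SE 0.08), which couples lysosomes to it, and FEZ2 (0.53, SE 0.06), an adaptor of the FEZ family. TRAK1, which links the heavy chains to mitochondria, was higher by 0.17 on the log2 scale, and KTN1, a receptor on the endoplasmic reticulum, was at 0.11 and not called (edgeR adjusted p = 0.608, and 0.00936 with the replicate block). The list's counts of 26.5% higher and 35.3% lower stand near those of all genes for the first and above them for the second.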

How the data were processed

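RNA-seq was run on 6 HCT116 libraries. Ribosomal RNA was removed from total RNA before stranded, paired-end libraries were made, per the labels' protocols; per the submitters' processing notes, bcl2fastq 2.20, STAR and DESeq2 were used on GRCh38. Whether counting used the strand is not given in the sources used here. Per the file headers, the authors deposited an expected count (an estimated number of reads), a TPM, a posterior mean TPM and a posterior SD of each count for every gene and transcript, and for transcripts the percent of the gene's abundance; shares here were computed from TPM. Of 59526 gene IDs, 58780 were found in GENCODE release 29 and were taken as the human genes. The other 746 IDs, at 2.55 to 11.13 CPM of a library, were left out.

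Expected counts were rounded and tested with edgeR 4.0.16 (R 4.3.3; filterByExpr, TMM, glmQLFit, glmQLFTest, Benjamini-Hochberg over all genes or all transcripts, threshold 0.05). CPM values carry the TMM factors. Each SE is the fold change divided by the root of the quasi-likelihood F statistic. Code was tested on simulated data. Alternatives were other scalings, filters and tests (DESeq2 1.42.0, limma 3.58.1 on log2(TPM + 1) and log2(TPM + 0.1)), thinning, GC offsets and leaving out libraries. Intron lengths and exon GC content come from the transcript with the longest coding sequence. The GC offsets instead used the GC content of each gene's longest transcript of any type. Planned GC content over the whole gene body was not used here, and exon GC content took its place.

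Named were the 7 members, their transcripts with at least 10% of the gene's TPM in either group, the 3 largest called changes each way per list at 1 CPM or more, genes within 100 kb of KLC2 and the 5 genes nearest to its pattern, with 0.01 added to CPM. The members and lists were chosen with earlier results of these data known. The labels give each library a biological replicate number and its own biosample. The deviations of same-numbered libraries from their group means correlated at 0.6513, 0.2653 and 0.2758 across genes. Unlike numbers that involve replicate 1 were at -0.4749 to -0.3559. DMSO replicate 3 with auxin replicate 2 was at 0.3116, and DMSO replicate 2 with auxin replicate 3 at 0.1798. The reported fits used the group alone. The numbers were taken as pairs only for the replicate block and for the comparisons within numbered pairs. These correlations set apart replicate 1 and do not settle the pairing of replicates 2 and 3. Libraries of a group differed by more than sampling noise (chi-square per degree of freedom of 37.1 or more).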

Additional observations from a re-analysis of the deposited data

How the results depend on the processing

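KLC3, KLC4 and KIF5A stayed called lower in all 18 alternative fits, with log2 fold changes from -1.93 to -1.14, from -2.58 to -0.62 and from -2.54 to -0.67. KLC2 stayed between -4.85 and -3.36; it was at -3.80 with GC offsets, -3.79 with the replicate block and GC offsets, -3.36 on log2(TPM + 1) and -4.26 on log2(TPM + 0.1); the cause was not tested. KLC1 lost its call on log2(TPM + 1) and log2(TPM + 0.1), both at 0.10 (limma adjusted p = 0.727 and 0.728). KIF5B, at 0.17, was called with the replicate block (edgeR adjusted p = 0.0017) and with replicates 2 and 3 alone (0.0193), and ranged from 0.07 to 0.27 without 1 library. KIF5C lost its call with DESeq2 size factors in edgeR (0.29, adjusted p = 0.0583), GC offsets (0.10, 0.394), the replicate block with GC offsets (0.10, 0.107), no filter (0.26, 0.0811), limma on log2(TPM + 1) (0.09, 0.750) and on log2(TPM + 0.1) (0.13, 0.745), and without DMSO replicate 1, 2 or 3 or auxin replicate 2 or 3, with 0.22 to 0.37 over all left-out libraries; the cause was not tested. The replicate block changed the call of no other member.

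Over all genes, 5010 were called higher and 5311 lower. On log2(TPM + 1) the counts were 970 and 2966, and on log2(TPM + 0.1) 1017 and 3223; the share of calls that were higher was 48.5% in the reported fit, 24.6% and 24% in these fits and 59.7% with upper-quartile factors, which moved the median of all genes by -0.14, -0.15 and 0.12 in log2 terms. GC offsets moved it by -0.10. Of 83072 transcripts, 6999 were called higher, 10666 with the replicate block and 3274 to 5395 without 1 library; 9331 were called lower, and 5626 to 8883 without 1 library. DMSO replicates 2 and 3 moved both transcript counts by over 1.5 times, and auxin replicates 2 and 3 the first.

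Of the shares whose groups overlapped, these changed sign without 1 library: KLC1-206 between -1.44 and 0.955 percentage points, KLC1-209 -3.09 and 0.786, KLC2-203 -6.71 and 0.598, KIF5C-201 -1.59 and 2.67, KIF5C-205 -2.58 and 1.31 and KIF5B-201 -0.0114 and 0.0116, the last also with posterior mean TPM (-0.00338). The KLC1 short donor difference stayed between 21.5 and 24 points; this share, its alternatives and the ranks by the most abundant coding transcript were chosen after seeing the data. By that transcript KLC3 had 8988 intron bases and KLC4 a GC content of 58.6%, each 1 class of 5 away from its place by the longest coding transcript. Counts near KLC2-211 and KLC4-207 were low, and the expected counts, made without molecular identifiers, do not count independent molecules.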

Other observations

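The other kinesin genes fell more often than not. Of 42 listed, 37 were tested, and 22 were called lower (59.5%, against 26.9% of all tested genes) and 6 higher (16.2%, against 25.4%), with a median log2 fold change of -0.91 against 0.02. KIFC3, a motor that walks towards the minus end, was at 13.3 ± 1.80 CPM in DMSO (SD, n = 3) and changed by -2.64 in log2 terms (SE 0.26; edgeR adjusted p = 0.000162). KIF21B was at -2.61 (SE 0.14), and KIF2C, a depolymerase of mitotic microtubules, at -2.41 (SE 0.08). The largest rises at 1 CPM or more were in KIF9 (0.90, SE 0.08), KIF26B (0.76, SE 0.15) and KIFAP3 (0.56, SE 0.09), the last being the cargo adaptor subunit of kinesin-2. The count of 6 was 3 without DMSO replicate 2 and 0 with limma on log2(TPM + 1), where the count lower remained within 1.5 times of 22.

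Dynein and dynactin, which carry cargo the opposite way, were called in shares near those of all genes. Of 23 listed genes 22 were tested, and 7 were called higher (31.8%, against 25.4% of all tested genes) and 6 lower (27.3%, against 26.9%), with a median log2 fold change of 0.17. With the replicate block 12 were higher and 7 lower, and with limma on log2(TPM + 1) 0 were higher and 3 lower. Within dynactin, DCTN2 fell by 2.09 (SE 0.06), ACTR1B by 1.88 (SE 0.14) and DCTN1, the arm that binds dynein and microtubules, by 1.53 (SE 0.06) on the log2 scale, while DCTN4 rose by 0.46 (SE 0.07). DYNLT3 and DYNLRB1, light chains of dynein, rose by 0.49 (SE 0.10) and 0.40 (SE 0.07).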
